A study of Mus musculus with 6 samples.

Results

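The genes described here are 8 enzymes of the tricarboxylic acid (TCA) cycle and its side branches, Cs, Idh1, Idh2, Idh3a, Sdha, Sdhb, Fh1 and Mdh2, together with Acod1, the enzyme that makes itaconate, which the deposited tables list under its older symbol Irg1. They were chosen by name from the pathway, with earlier results of these data known, and all 9 were found among the 24062 listed genes. RNA was sequenced from RAW264.7 cells, a mouse macrophage line that the labels also give as bone marrow tissue, with 1 library for each of 6 conditions and RNA from 5 wells pooled in each library. M0 macrophages received no polarizing agent. M1 macrophages were given LPS at 100 ng/mL with IFN-γ at 20 ng/mL, and M2 macrophages IL-4 at 20 ng/mL, in both cases over 24 h. RM0, RM1 and RM2 are these 3 states after a dose of 10 Gy from a caesium gamma source and a further 24 h in culture. Whether M0, M1 and M2 were also kept for these 24 h is not stated. Dose and time in culture may therefore not be told apart where irradiated and non-irradiated libraries are compared. All libraries thus came from 1 transformed cell line, and a single library per condition leaves no replicate check of any difference between 2 libraries.

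The TCA cycle oxidizes acetyl groups in the mitochondrial matrix. Citrate synthase joins acetyl-CoA to oxaloacetate, and isocitrate dehydrogenase, succinate dehydrogenase, fumarase and malate dehydrogenase carry the carbon back to oxaloacetate. In inflammatory macrophages the mitochondrial enzyme encoded by Acod1 removes cis-aconitate from this path and decarboxylates it to itaconate, an inhibitor of succinate dehydrogenase with antibacterial and anti-inflammatory activity. Macrophages stimulated with LPS and IFN-γ are a textbook case of a cycle with breaks at isocitrate dehydrogenase and succinate dehydrogenase, while IL-4 is associated with an intact cycle.

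The stretches upstream of Acod1 and Idh1 are shown because these were the 2 members with the widest relative range of TMM-scaled levels over the 6 libraries (3.27-fold for Idh1 and 2.99-fold for Acod1). Both were taken from RefSeq promoter windows of GRCm38.p6, which held 8 of the 9 genes (none for Idh3a). Each run is written 5′ to 3′ on the strand of the gene and ends where the GENCODE M21 gene begins, so that 35 bases before the RefSeq start of Acod1 and 21 before that of Idh1 are left out. Capitals mark letters that match a searched motif on either strand. The Acod1 stretch is chr14:103046762-103046976 on the plus strand, and the Idh1 stretch is chr1:65186501-65186729 on the minus strand.
Acod1: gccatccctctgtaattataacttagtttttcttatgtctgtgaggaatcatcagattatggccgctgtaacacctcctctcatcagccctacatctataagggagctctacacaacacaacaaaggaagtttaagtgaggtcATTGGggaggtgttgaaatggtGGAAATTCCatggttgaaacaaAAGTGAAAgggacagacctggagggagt
Idh1: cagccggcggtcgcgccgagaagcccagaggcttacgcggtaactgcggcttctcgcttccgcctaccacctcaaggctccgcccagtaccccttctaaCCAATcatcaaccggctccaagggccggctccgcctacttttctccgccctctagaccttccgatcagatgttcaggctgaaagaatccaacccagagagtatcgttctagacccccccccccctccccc

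The searched motifs were the letters TATAAA of the TATA box, AANNGAAA (core of the sites of interferon regulatory factors), TTCNNNGAA (STAT site), GGAANTTCC (kB site of NF-kB), TGANTCA (AP-1 site), ACGTG (core of the HIF site) and CCAAT, each on both strands of the 250 bases before the RefSeq start. Their letters were set after the Acod1 stretch had been seen. In the Acod1 stretch the kB letters GGAAATTCC began 85 bases before the RefSeq start, the interferon regulatory factor letters AAGTGAAA began 63 bases before it, and CCAAT on the opposite strand began 107 bases before it. TATAAA began 28 bases before the start and the HIF core, on the opposite strand, 18 bases before it, both within the bases left out above. Of 32851 promoters in the same table, 0.813% held the kB letters, 21.3% the interferon regulatory factor letters, 12.4% TATAAA, 16.6% the HIF core and 33.8% CCAAT. Among the 8 genes with a window, the kB letters and TATAAA were found for Acod1, the interferon regulatory factor letters for Acod1 and Cs, the HIF core for Acod1 and Sdha, and CCAAT for 7 (all but Mdh2). The STAT and AP-1 letters, held by 7.02% and 6.75% of promoters, were in none of the windows of these genes. In Idh1 the CCAAT letters began 151 bases before the start and no other searched motif was found. A match describes letters only.

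The libraries held between 17894937 and 18870516 counted reads, and 8137 genes had 0 counts in all 6. Levels are given as CPM, counts divided by library totals that the TMM method of edgeR had adjusted, and, where genes are set against each other, as CPM per kilobase of the longest GENCODE transcript. TMM factors ran from 0.8004 in M1 to 1.134 in M2, and scaling by library totals instead lowered the median log2 fold change of all genes to -0.46 in M1 against M0 and to -0.25 in RM1 against RM0, and raised it to 0.13 in RM1 against M1. Of 8 macrophage markers 7 had at least 10 counts in every library, the exception being Mertk at 3 to 8 counts. Markers of T cells, B cells and epithelial cells summed to between 0 and 4 counts in every library. Of the 4 fibroblast markers, Col1a2 was at 0 throughout, Pdgfra at 1 to 4 and Col1a1 at 0 to 11 counts. Dcn, the fourth, had 113 counts in M0, 145 in RM0, 114 in M2, 177 in RM2, 627 in M1 and 726 in RM1, so it was highest in the same libraries as Acod1. The part of other cells in the results was not tested beyond these counts, and fewer cells of a type and less RNA per cell cannot be told apart in bulk RNA.

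All 9 genes were well measured, from 545 counts (Idh3a in M1) to 26393 (Acod1 in M1). Their listed coordinates cover between 96% and 99.9% of the annotated genes, and none shares a 100-base stretch of transcript or an exon base with another gene. Per kilobase the order in M0 was Mdh2 (264.8), Acod1 (227.6), Cs (116.7), Sdhb (89.2), Sdha (54.3), Idh2 (52.8), Idh1 (36.9), Fh1 (35.4) and Idh3a (24.9 CPM per kilobase). Acod1 and Mdh2 differed little in M2 (236.1 and 237.1) and RM0 (270.3 and 275.3), while Acod1 stood above Mdh2 in M1 (680.5 and 398.4), RM1 (453.6 and 316.6) and RM2 (304.4 and 238.2). Mdh2 and Cs kept first and second place among the 8 cycle genes in every library, and Idh3a had the lowest level in all 6. Idh1 changed places most often. It was above Idh2 in M2 (47.8 and 44.2) and RM2 (71.8 and 38.5) and below it in the other 4 libraries. By counts without division by length, Idh1 was above Idh2 also in RM0 (2014 and 1644) and RM1 (1357 and 1217). With a single library per condition, the spread needed to say which neighbours in this order differ is not available.

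**Figure D1:**
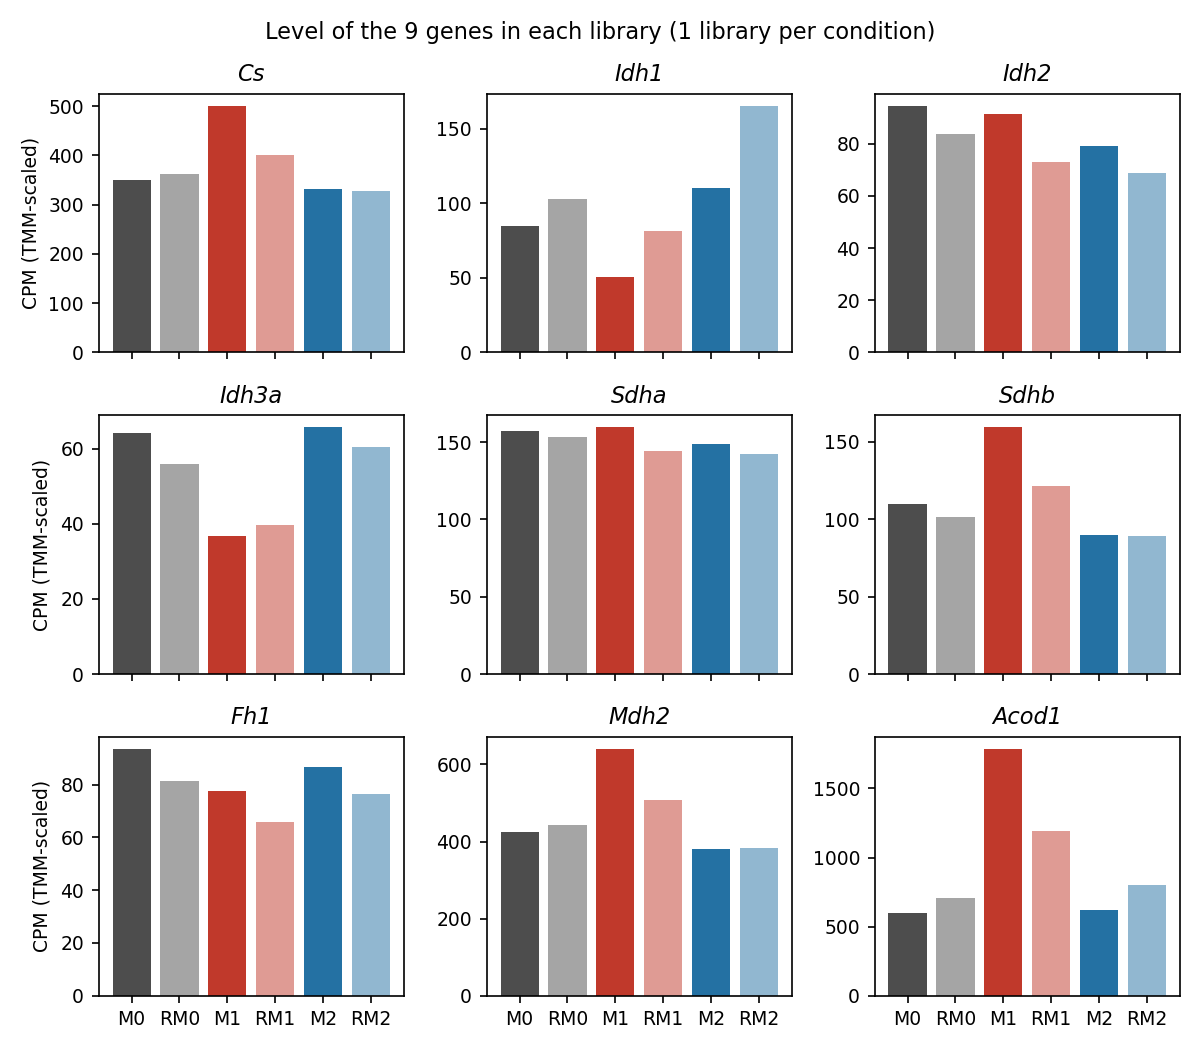
TMM-scaled CPM of each of the 9 genes in the 6 libraries, 1 bar per library, dark bars without and pale bars with 10 Gy; each panel has its own axis starting at 0. Acod1 was highest in M1 (1785 CPM) and RM1 (1190 CPM), Idh3a was lowest in the same 2 libraries (36.9 and 39.6 CPM), and Idh1 was highest in RM2 (165.3 CPM).

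Acod1 (NM_008392, chromosome 14, 103047012 to 103056573 on GRCm38), the source of itaconate, was the member that changed most with M1 polarization on the TMM scale. Its level was 596.9 CPM in M0 and 708.9 in RM0, 619.2 in M2 and 798.5 in RM2, and 1785 in M1 and 1190 in RM1. Both M1 libraries were above the other 4, with no overlap, also as a share of all counts. Here and for the members below, the share of all genes that separate the M1 libraries in this way was not counted. Between M1 and M0 Acod1 was 2.99-fold higher, a log2 fold change of 1.58 with a 95% counting interval of 1.55 to 1.61. This placed it at percentile 95.6 of all genes in that pair. With library totals the value was 1.14, smaller in size than those of Idh3a (-1.24) and Idh1 (-1.19). Between RM1 and RM0 the log2 fold change of Acod1 was 0.75 (0.72 to 0.78). The smallest differences were those of M2 against M0, 0.05 (0.02 to 0.09), and RM2 against RM0, 0.17 (0.14 to 0.21). These counting intervals cover the sampling of reads and not the spread between cultures. Already in M0 Acod1 took 0.0649% of all counts and ranked 243 of all genes per kilobase, and in M1 it took 0.143% and ranked 145.

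In the test that takes irradiated and non-irradiated libraries of a state as its replicates (edgeR's quasi-likelihood test, Benjamini-Hochberg adjustment), Acod1 rose in M1 by a log2 fold change of 1.19 (SE 0.212, adjusted p = 0.00121). It kept this direction and call in all 8 fits run, with adjusted p between 5.96e-06 and 0.0256. The same test passed Sdhb and Mdh2 as higher and Idh1 and Idh3a as lower, so that 3 of the 9 genes were higher and 2 lower in M1. Of the 11804 genes tested, 23.2% were called higher and 23.9% lower, and the 9 members had a median log2 value of -0.04 beside -0.02 for all genes. With library totals the split of members was 1 higher and 5 lower. There 5913 of the 11804 genes passed and the median of all genes was -0.36. At the 2-fold limit for a single pair of libraries, M1 against M0 gave 1 member higher (Acod1) and 0 lower, where 9.37% of 11778 genes were higher and 13.3% lower.

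Citrate synthase, Cs (NM_026444, chromosome 10, 128337832 to 128362479), opens the cycle. It was at 350.4 CPM in M0, 362.3 in RM0, 332.4 in M2, 327.9 in RM2, 500.4 in M1 and 401.4 in RM1. The M1 libraries were the 2 highest on the TMM scale, but RM1 had the lowest share of all counts (0.03547%). The shared log2 fold change of 0.33 (SE 0.136) did not pass (adjusted p = 0.0655). It had the opposite sign, -0.01, when libraries were scaled by totals.

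The 3 isocitrate dehydrogenases behaved differently from one another. Idh3a (NM_029573, chromosome 9, 54586511 to 54604662), the catalytic alpha subunit of the NAD-dependent enzyme of the cycle, was at 64.2 CPM in M0, 55.9 in RM0, 65.7 in M2, 60.6 in RM2, 36.9 in M1 and 39.6 in RM1. Both M1 libraries were below the other 4. It was 1.74-fold lower in M1 than in M0 and 1.41-fold lower in RM1 than in RM0, and in the shared test it fell by 0.65 on the log2 scale (SE 0.129, adjusted p = 0.00232). All 8 fits gave this call, with adjusted p from 0.00132 to 0.00683.

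Idh1 (NM_001111320, chromosome 1, 65158616 to 65186479) makes NADPH and 2-oxoglutarate in the cytosol. It had 84.9 CPM in M0, 102.8 in RM0, 50.5 in M1, 81.4 in RM1, 110.0 in M2 and 165.3 in RM2. M1 had the lowest and RM2 the highest level of the 6, and each irradiated library was above its non-irradiated partner. In M1 it fell by 0.54 on the log2 scale in the shared test (SE 0.133, adjusted p = 0.00729). Without the irradiation term the adjusted p was 0.151. The pairs gave -0.75 for M1 against M0 (-0.87 to -0.62) and -0.34 for RM1 against RM0 (-0.44 to -0.24). In M2 the shared value was 0.53 (SE 0.131, adjusted p = 0.257), from 0.38 in M2 against M0 and 0.69 in RM2 against RM0. It passed once the M1 and RM1 libraries were left out (0.54, adjusted p = 5.95e-06).

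Idh2 (NM_173011, chromosome 7, 80094847 to 80115350), the mitochondrial NADP-dependent counterpart, ranged from 69.0 CPM in RM2 to 94.6 in M0, with 91.5 in M1, 83.9 in RM0, 79.1 in M2 and 73.0 in RM1. Its levels did not separate by polarization state. The shared M1 value of -0.12 (SE 0.118) had an adjusted p of 0.412, and with library totals Idh2 was called lower (-0.47, adjusted p = 0.0108).

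Succinate dehydrogenase oxidizes succinate to fumarate and feeds electrons to ubiquinone. Sdha (NM_023281, chromosome 13, 74322255 to 74350240), its flavoprotein subunit, lay between 142.1 CPM in RM2 and 159.5 in M1, a 1.12-fold range that was the narrowest of the 9 on the TMM scale. As a share of all counts its range was 1.35-fold and that of Cs, 1.13-fold, was the narrowest. The shared M1 value was -0.04 (SE 0.116, 95% interval -0.29 to 0.22, adjusted p = 0.823), and with library totals Sdha was called lower (-0.38, adjusted p = 0.0184). Sdhb (NM_023374, chromosome 4, 140961271 to 140979192), the iron-sulfur subunit, was at 109.9 CPM in M0, 101.1 in RM0, 90.0 in M2, 89.0 in RM2, 159.1 in M1 and 121.5 in RM1. Both M1 libraries were above the other 4 on the TMM scale, but as a share of all counts RM1 (0.01074%) was below M0 (0.01195%). Sdhb rose by 0.40 on the log2 scale in M1 (SE 0.128, adjusted p = 0.0247), a call lost with library totals (0.05, adjusted p = 0.702), without the irradiation term (adjusted p = 0.0602) and without the M2 and RM2 libraries (adjusted p = 0.0863).

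Fumarase and malate dehydrogenase complete the cycle. Fh1 (NM_010209, chromosome 1, 175601378 to 175625635) was at 93.4 CPM in M0, 81.5 in RM0, 77.4 in M1, 65.7 in RM1, 86.7 in M2 and 76.6 in RM2. M1 and RM2 overlapped here, and the shared M1 value of -0.29 (SE 0.116) did not pass (adjusted p = 0.0608), although it did with library totals (-0.64, adjusted p = 0.00339). Mdh2 (NM_008617, chromosome 5, 135778649 to 135790386), the most abundant of the 8 cycle genes, had 425.3 CPM in M0, 442.1 in RM0, 380.8 in M2, 382.6 in RM2, 639.8 in M1 and 508.4 in RM1. The M1 libraries were the 2 highest on the TMM scale, but as a share of all counts RM1 (0.04492%) was below M0 (0.04623%) and RM0 (0.04642%). Mdh2 rose by 0.40 in M1 (SE 0.141, adjusted p = 0.0381), and lost that call under the same 3 alternatives as Sdhb, with values of 0.05 (adjusted p = 0.702), 0.40 (0.0605) and 0.38 (0.132).

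**Figure D2:**
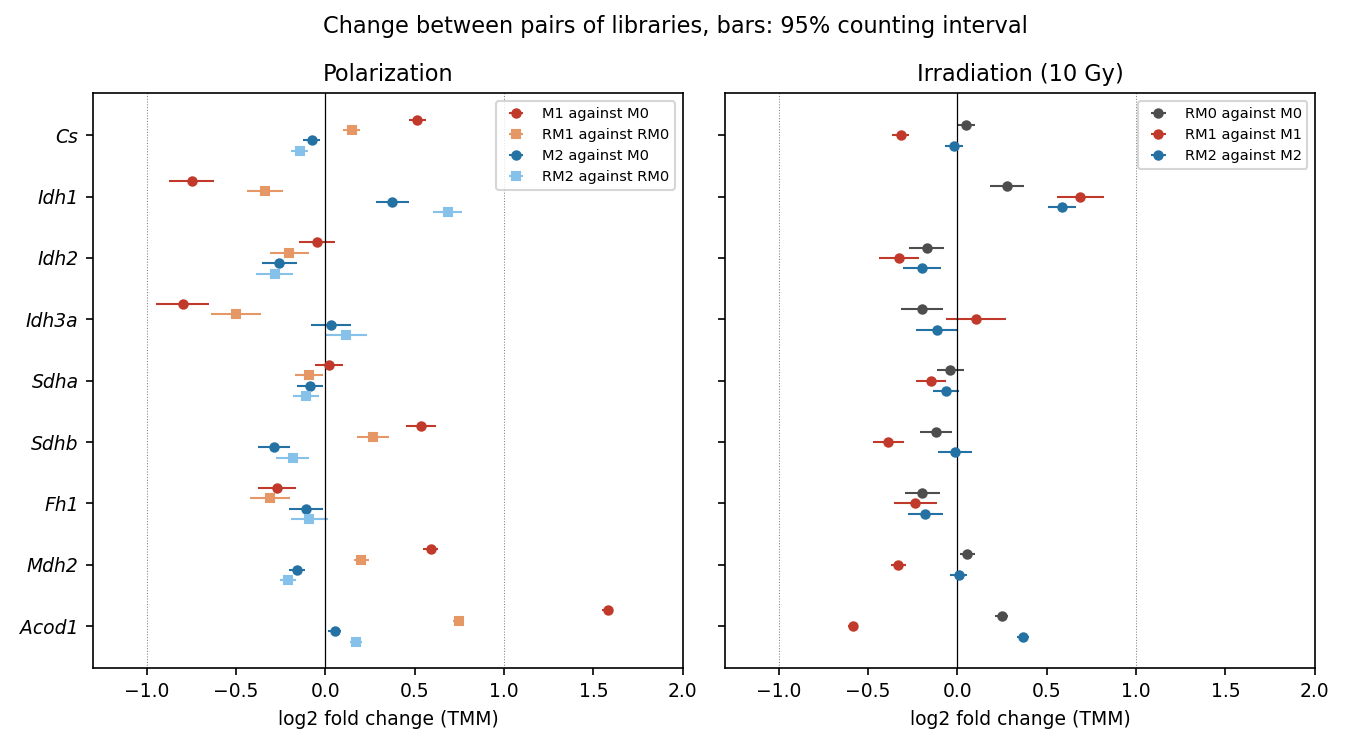
Log2 fold change of each member between pairs of libraries on the TMM scale, polarization on the left and irradiation on the right, with 95% counting intervals as bars and dotted lines at 2-fold. Of 63 values, 1 lay past 2-fold (Acod1 in M1 against M0, 1.58), and Idh1 lay to the right of 0 in all 3 irradiation pairs (0.28, 0.69 and 0.59).

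Irradiation moved no member past 2-fold in any state. The counts were 0 of 9 in RM0 against M0, RM1 against M1 and RM2 against M2, where 1.54%, 5.34% and 1.97% of all genes were called in either direction. In the test of an effect shared by the 3 states (edgeR), 0 of 9 passed, 2 had an unadjusted p under 0.05 (Idh1 and Idh2), and DESeq2's Wald test called 1 (Idh1). Over the 11574 genes tested with edgeR, 0.346% were called higher and 0.130% lower, and 1707 had an unadjusted p under 0.05. DESeq2's Wald test called 115 genes.

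Idh1 had the largest shared value of the 9, 0.52 (SE 0.109, adjusted p = 0.0714), at percentile 97.7 of all genes tested. It was higher in 3 of 3 irradiated libraries, by 0.28 in RM0 against M0 (0.18 to 0.37), 0.69 in RM1 against M1 (0.56 to 0.82) and 0.59 in RM2 against M2 (0.51 to 0.67). With DESeq2's Wald test the adjusted p was 0.0216, without a filter on counts it was 0.0378, without M0 and RM0 it was 0.0356, and without M1 and RM1 it was 0.00058. Idh1 did not pass with DESeq2 size factors (0.0657), at least 100 counts in every library (0.0723), library totals (0.225), without M2 and RM2 (0.433) or without the polarization term (1.00). Idh2, Fh1, Sdha and Sdhb, 4 of the 9, had a log2 value below 0 in 3 of 3 pairs, and with library totals Cs did too. The share of all genes below 0 in 3 of 3 pairs was not counted. The pair values, in the order M0, M1 and M2, were -0.17, -0.33 and -0.20 for Idh2 (shared value -0.23, adjusted p = 0.306) and -0.20, -0.24 and -0.18 for Fh1 (shared value -0.20, adjusted p = 0.351). They were -0.04, -0.15 and -0.06 for Sdha and -0.12, -0.39 and -0.02 for Sdhb. The counting intervals of Sdha in the M0 and M2 pairs and of Sdhb in the M2 pair included 0.

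Acod1 differed in sign between the states. It was higher after irradiation in RM0 against M0, by 0.25 (0.21 to 0.28), and in RM2 against M2, by 0.37 (0.33 to 0.40), and lower in RM1 against M1, by -0.59 (-0.61 to -0.56). The shared value was accordingly near 0 (0.01, SE 0.171, adjusted p = 0.98), and without M1 and RM1 it was 0.31 (adjusted p = 0.0211). The difference between the states was not tested, since a fit with its own irradiation term for each state leaves no residual degrees of freedom. On the TMM scale the M1 pair gave the lowest of the 3 irradiation values for 7 of the 9 members (all but Idh1 and Idh3a), and with library totals for 4 (Cs, Sdhb, Mdh2 and Acod1). For Cs, Sdhb and Mdh2 these values were -0.32, -0.39 and -0.33 on the TMM scale and -0.17, -0.25 and -0.19 with library totals. The share of all genes with their lowest irradiation value in the M1 pair was not counted.

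M2 polarization called 0 of 9 members at 2-fold, in M2 against M0 and in RM2 against RM0, where 1.44% and 2.61% of genes were called in either direction. RM1 against RM0 likewise gave 0 of 9, where 14.0% of genes were called. The shared M2 test (edgeR) passed 0 of 9, with 2 at an unadjusted p under 0.05 (Idh1 and Idh2) and 0 by DESeq2 after adjustment. Of the 11804 genes tested there with edgeR, 0.144% were called higher and 0.0254% lower, and 1190 had an unadjusted p under 0.05. After Idh1, the largest M2 values were -0.27 for Idh2 (adjusted p = 0.484) and -0.23 for Sdhb (adjusted p = 0.533).

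Ratios of 2 genes within 1 library do not depend on how libraries are scaled. Their size does depend on the transcript lengths used, while folds of a ratio between libraries do not. Without lengths, Sdha per Sdhb in M0 was 1.43 in place of 0.609. Acod1 against Cs, the enzyme at the entry of the cycle, had a ratio of counts per kilobase of 1.95 in M0, 2.24 in RM0, 2.13 in M2, 2.79 in RM2, 4.08 in M1 and 3.39 in RM1. The ratio was thus 2.09-fold higher in M1 than in M0 and 1.51-fold higher in RM1 than in RM0. Irradiation went with a higher ratio in M0 (1.15-fold) and M2 (1.31-fold) and with a 1.20-fold lower ratio in M1. Against Idh3a, a subunit of the enzyme that takes up isocitrate after the branch, it went from 9.15 (counting interval 8.63 to 9.70) to 47.6 (43.8 to 51.9), a 5.21-fold difference, and from 12.5 in RM0 to 29.6 in RM1.

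Idh1 per Idh2 was 0.698 in M0 and 0.429 in M1, 1.08 in M2 and 1.86 in RM2, with RM0 at 0.953 and RM1 at 0.867. The ratio was higher after irradiation in each state, by 1.37-fold in M0, 2.02-fold in M1 and 1.72-fold in M2. Sdha per Sdhb, subunits that assemble one to one, was 0.609 in M0, 0.644 in RM0, 0.701 in M2, 0.678 in RM2, 0.426 in M1 and 0.504 in RM1, so both M1 libraries were below the other 4. The same held for Idh3a per Idh3b, a ratio chosen after the values were seen, which was 0.544 in M0, 0.446 in RM0, 0.571 in M2, 0.539 in RM2, 0.210 in M1 and 0.267 in RM1. Idh3b is the beta subunit of the same complex. The share of other gene ratios that separate the M1 libraries in this way was not counted. As a share of the summed level of the 8 cycle genes per kilobase, Idh1 made up 2.53% in M1, 5.46% in M0 and 11.4% in RM2, and Idh3a 1.65% in M1 and 3.69% in M0, while Mdh2 made up 46.0% in M1 and 39.2% in M0.

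**Figure D3:**
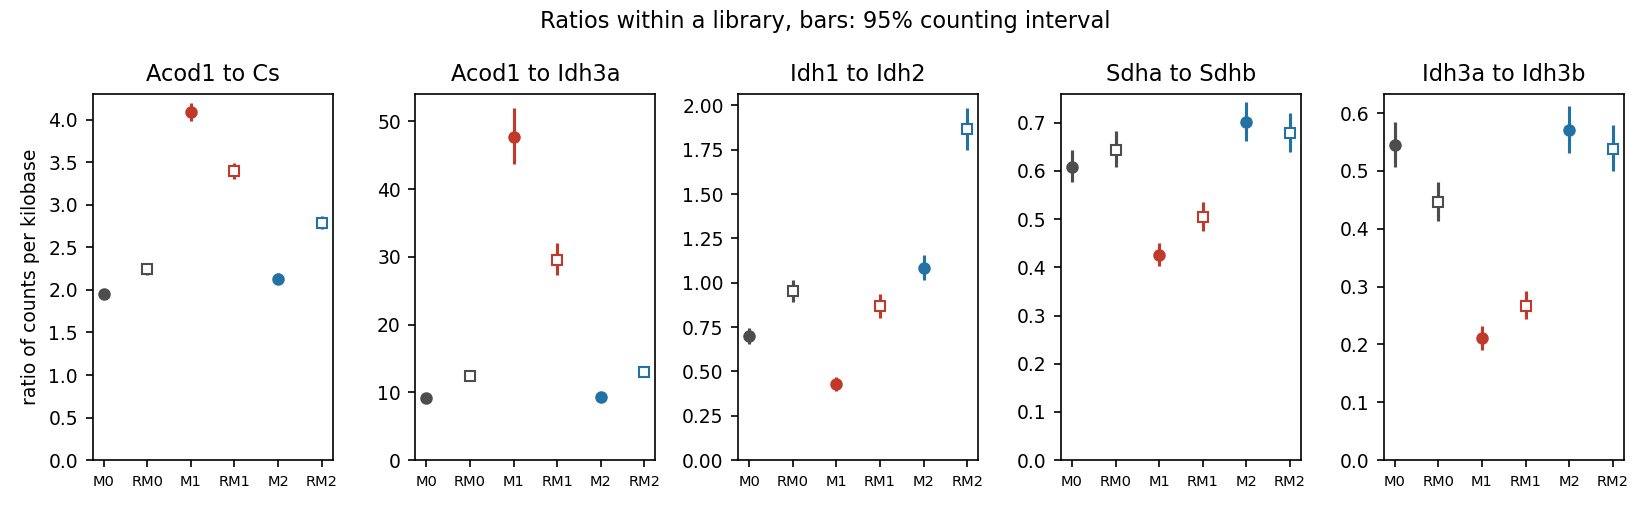
Ratios of counts per kilobase of 2 genes within each of the 6 libraries, filled circles without and open squares with 10 Gy, bars showing 95% counting intervals. M1 had the highest Acod1 to Cs ratio (4.08) and the lowest Idh1 to Idh2 (0.429), Sdha to Sdhb (0.426) and Idh3a to Idh3b (0.210) ratios, and RM2 the highest Idh1 to Idh2 ratio (1.86).

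Connected genes were followed in 6 lists of 46 genes, of which 44 could be tested. In M1 they gave 11 higher, 7 lower and 26 that did not pass, beside the 23.2% and 23.9% of all genes called, and their median log2 fold change was 0.13 where that of all genes was -0.02. With library totals the split was 3 higher (Dlst, Pdp1 and Slc25a1) and 16 lower, the 7 lower calls were all among them, and Sucla2 changed sign. Of all 11804 genes, 5913 passed with library totals. DESeq2 called 12 of the 44, 9 higher and 3 lower.

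The 11 other cycle enzymes gave 4 higher and 0 lower, against 1 higher and 2 lower with library totals, 2 higher without the irradiation term and 1 higher without M2 and RM2. These were Dlst (0.82, adjusted p = 0.000703), the succinyltransferase of the 2-oxoglutarate dehydrogenase complex, Idh3b (0.41), Sdhd (0.40), a membrane anchor of succinate dehydrogenase, and Sucla2 (0.34), a succinyl-CoA ligase subunit. Dlst counts were 5699 in M0, 6244 in RM0, 8280 in M1 and 8476 in RM1. Ogdh (0.21, adjusted p = 0.154), which decarboxylates 2-oxoglutarate, and Suclg1 (-0.03, adjusted p = 0.869), another succinyl-CoA ligase subunit, did not pass. Idh3g, the gamma subunit of the Idh3 complex, had a value of -0.27 (adjusted p = 0.117) and was chosen after the values were seen. Idh3a and Idh3b, 2 subunits of 1 enzyme, were called in opposite directions, but the Idh3b call was lost with library totals and without M2 and RM2.

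Genes of pyruvate entry gave 2 higher and 4 lower of 12 tested. Pdk1, a kinase that switches off pyruvate dehydrogenase, had 545 counts in M0, 117 in M1, 568 in RM0 and 273 in RM1. It was 3.44-fold lower in M1 than in M0 and 2.06-fold higher in RM1 than in M1, and it fell by 1.24 on the log2 scale in the shared test (adjusted p = 0.00142). Pdk2, a second such kinase, fell by 1.00 from low counts (53 in M0 and 20 in M1, adjusted p = 0.0189). Pdp1 (0.77, adjusted p = 0.00143), a phosphatase that reactivates the complex, and Mpc1 (0.60, adjusted p = 0.00965), a subunit of the mitochondrial pyruvate carrier, rose. The other two lower genes, named after their values were seen, were Pcx, pyruvate carboxylase (-0.44), and Pdhx, a structural subunit of pyruvate dehydrogenase (-0.35), which lost their calls with DESeq2, without the irradiation term and without M2 and RM2. Pdk2 lost its call with DESeq2 and Mpc1 with library totals. Pdk4 had 0 counts in all 6 libraries.

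Among 8 genes that carry or use citrate and malate outside the matrix, Slc25a1, the mitochondrial citrate carrier (0.73, adjusted p = 0.00209), and Acly, which splits cytosolic citrate to acetyl-CoA (0.43, adjusted p = 0.0147), rose in M1. Slc25a10, the dicarboxylate carrier, fell by 0.53 (adjusted p = 0.0179). Of 7 genes of glutamine, aspartate and argininosuccinate routes, Ass1, argininosuccinate synthase, rose by 1.29 (adjusted p = 0.0119) and Gpt2, mitochondrial alanine transaminase, fell by 1.10 (adjusted p = 8.1e-05). Ass1 had 53 counts in M0, 160 in M1, 48 in RM0 and 53 in RM1, so that it was 3.93-fold higher in M1 than in M0 and 1.29-fold higher in RM1 than in RM0. RM1 against M1 gave a log2 fold change of -1.73 (-2.24 to -1.31). The Ass1 call was lost with library totals and without the irradiation term, that of Acly with library totals and without M2 and RM2, and that of Slc25a10 with DESeq2 and without M2 and RM2. Gpt2 was 2.23-fold lower in M1 than in M0 and 2.05-fold lower in RM1 than in RM0.

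Sdhaf2 (0.61, adjusted p = 0.00263) and Sdhaf3 (0.80, adjusted p = 0.0329), 2 of the 4 assembly factors of succinate dehydrogenase, rose in M1. Sdhaf3 rested on 38 to 70 counts and lost its call with library totals, with DESeq2 and without M2 and RM2, and Sdhaf2 lost its call with library totals. Of the genes for itaconate breakdown, Clybl, citramalyl-CoA lyase, fell by 1.02 (adjusted p = 0.00379), from 191 counts in M0 to 60 in M1 and from 174 in RM0 to 83 in RM1, and was 2.34-fold lower in M1 than in M0. Auh was at 0.16 (adjusted p = 0.377) and Sugct had at most 5 counts. For Ass1, Clybl, Mpc1 and Pcx the listed coordinates cover only 0.592%, 0.131%, 3.55% and 3.75% of the annotated gene, so where their reads were counted is not known. In the irradiation and M2 tests (edgeR) 0 of the 44 genes passed, with 1 and 2 at an unadjusted p under 0.05. Among all genes, 1707 of 11574 and 1190 of 11804 had an unadjusted p under 0.05 in these edgeR tests. DESeq2 also called 0 of the 44 in both.

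**Figure D4:**
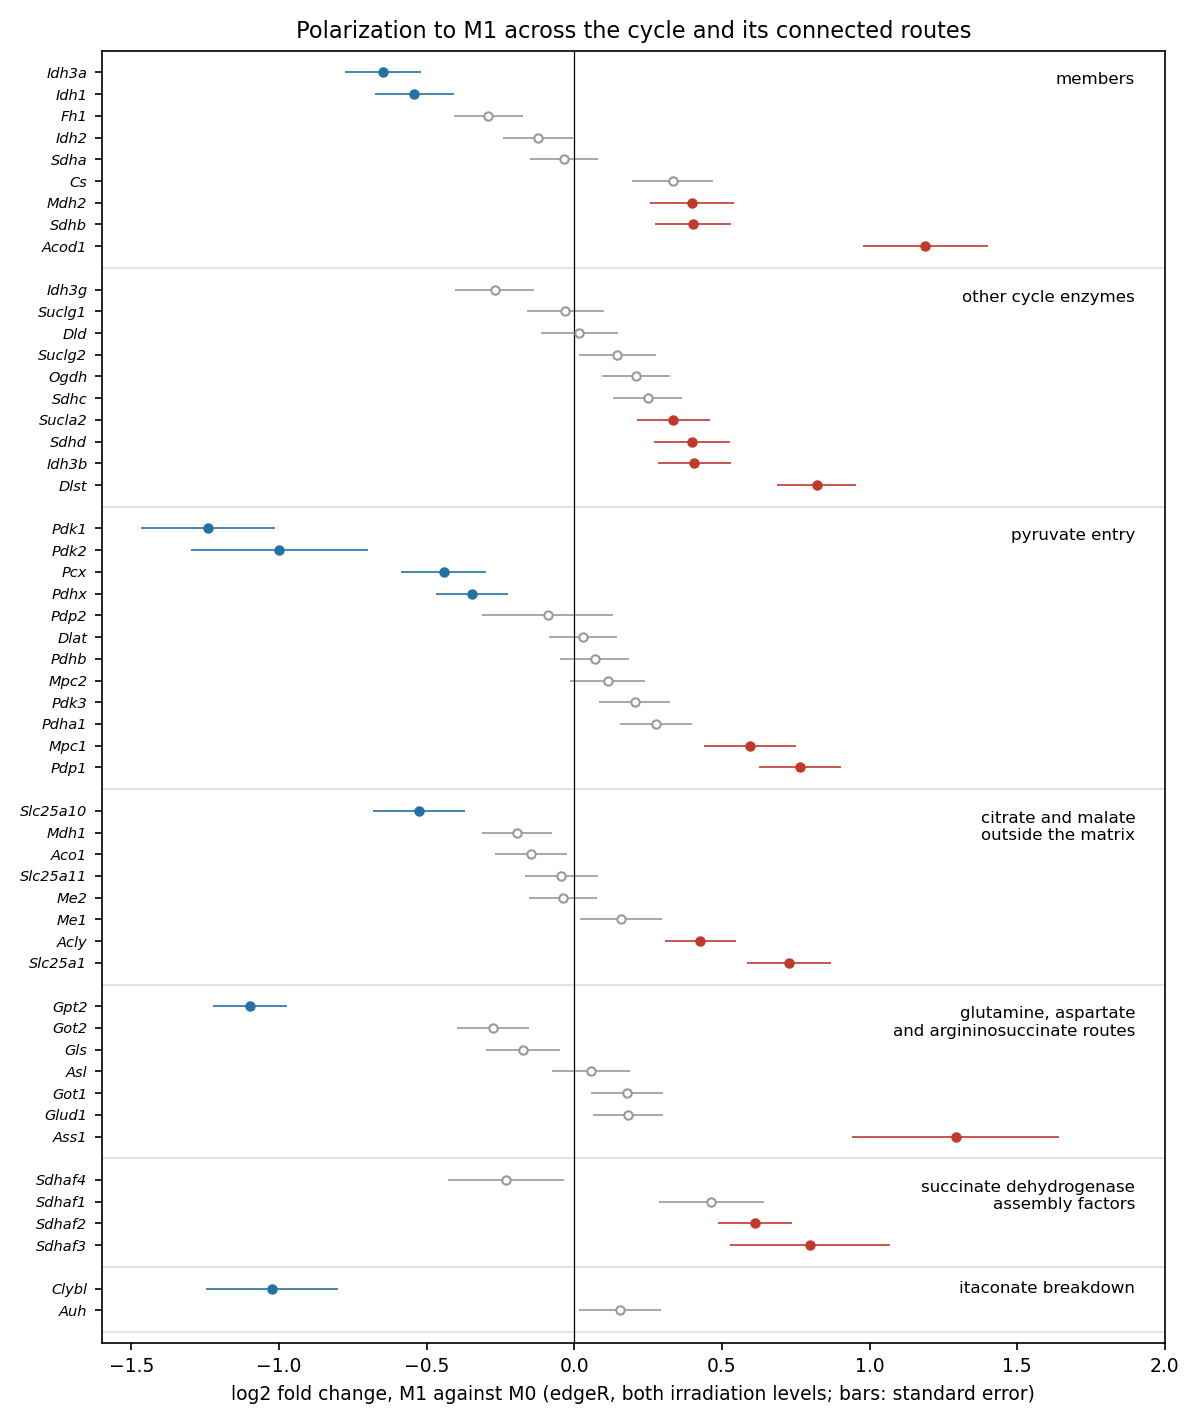
Log2 fold change in M1 against M0 over both irradiation levels (edgeR), 1 point per gene reported with its standard error, grouped by list; red points passed as higher and blue points as lower (adjusted p threshold 0.05), and open grey points did not pass. Acod1 (1.19) and Ass1 (1.29) lie farthest right, and Pdk1 (-1.24), Gpt2 (-1.10) and Clybl (-1.02) farthest left.

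The 5 genes whose profile over the 6 libraries lay nearest to that of Acod1, by the root mean square difference of centred log2 CPM among 10190 genes averaging 50 counts or more, were Id2 (0.079), Cnbd2 (0.084), Slc17a7 (0.091), Ppp4r1l-ps (0.115) and Dram1 (0.121). Dram1 had 655 counts in M0, 1207 in M1, 683 in RM0 and 967 in RM1. Id2 had 96, 198, 124 and 161 in the same order. With 6 libraries such a match describes these libraries only.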

How the data were processed

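RNA sequencing of 6 RAW264.7 libraries was analysed from the read counts per gene that the authors deposited without normalization. The submitters' processing notes list Trimmomatic 0.36, HISAT2 2.2.1, HTSeq 0.11.3 and the mm10 build, and whether counting used strand is not given in the sources used here. Gene symbols had become dates for 27 genes.

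Samples were grouped by their titles and treatments. Counts were scaled with TMM in edgeR 4.0.16 (R 4.3.3). Pairs of libraries were compared by log2 fold change with a prior count of 2 and exact Clopper-Pearson 95% intervals, which cover counting error only, and called at 2-fold with at least 10 counts in 1 library. Shared effects came from 1 edgeR quasi-likelihood model with polarization and irradiation as terms. Genes entered with 10 or more counts in 3 libraries for irradiation and in 2 for polarization, with Benjamini-Hochberg adjustment over all genes at 0.05. Here states or irradiation levels stand in for replicates, 2 residual degrees of freedom remain, and the same effect is assumed in each, so that p-values measure the spread between these libraries only. The fits were checked on simulated data. DESeq2 1.42.0, Python 3.11.15, pandas 2.3.3, scipy 1.17.1 and matplotlib 3.10.9 were also used.

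The members and gene lists were chosen with earlier results of these data known. The text names all members, Ogdh and Suclg1, list genes called at 2-fold in a pair, up to 4 per list that passed a shared test, and the 5 genes nearest to Acod1 in profile. Idh3g, Pcx, Pdhx, Pdk4, Auh and Sugct were named after their values were seen. Alternatives were other scalings, DESeq2, other filters, prior counts and folds, models without a term, and a state left out. Results for 1 further list gene are not reported here. Exosome measurements were not analysed here.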

Additional observations from a re-analysis of the deposited data

Results flagged for a closer look

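Acod1 was the only member to meet a joint condition on its changes with irradiation. They had opposite signs in different states, with counting intervals on 1 side of 0, under TMM, DESeq2 size factors and library totals at once. On the TMM scale taken by itself Mdh2 also had opposite signs. It was at 0.06 (0.01 to 0.10) in RM0 against M0 and -0.33 (-0.37 to -0.29) in RM1 against M1. Only the members were searched for this, and the share of all genes that behave so was not counted. The log2 fold change of Acod1 was 0.25 in RM0 against M0 and 0.37 in RM2 against M2, and -0.59 in RM1 against M1. The difference between states was not tested, since each state has 1 library per irradiation level.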

How the results depend on the processing

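No paired analysis was possible because the labels give no replicate numbers, other than the pairing of each irradiated library with its own state, which the irradiation test already holds as its polarization term. For irradiation, 55 genes passed, against 3 with library totals, 115 with DESeq2's test, 156 without a filter, 30 with at least 100 counts in every library, 100 without M0 and RM0, 525 without M1 and RM1 and 0 without the polarization term (138 unadjusted). Members higher went from 0 to 1 (DESeq2's test, no filter, without M0 and RM0) or 2 (without M1 and RM1). The irradiation value of Acod1, 0.01, became -0.11 without M0 and RM0, -0.16 without M2 and RM2 and -0.15 without the polarization term, and Cs and Mdh2, at -0.10 and -0.09, became 0.02 and 0.04 without M1 and RM1. In M1 the 3 higher and 2 lower members became 1 and 5 with library totals, where Cs was at -0.01, and 1 and 1 without the irradiation term, and 1 member was higher without M2 and RM2. For M2, 20 genes passed, against 3 with library totals, 43 with DESeq2's test, 56 without a filter, 0 without the irradiation term (643 unadjusted) and 1339 without M1 and RM1, where 1 member was higher. At 1.5-fold the members called were 4 in M1 against M0 (3 at 2-fold with library totals), 2 in RM1 against M1 and 1 each in RM2 against M2, RM1 against RM0 and RM2 against RM0. The shares of all genes called at these settings were not counted, so these member counts cannot be set against them. Library totals took the median M1 value of all genes from -0.02 to -0.36, and the genes that passed in M1 from 5563 to 5913. The cause of these changes was not tested. Of the member values in the shared tests under an alternative, 185 kept direction and call, 9 gained and 7 lost the call, and 6 changed sign. All members had 545 counts or more in every library, and no condition has a replicate.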
